A study of Mus musculus with 9 samples.

Results

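The ZBTB family holds transcription factors that pair a BTB domain, also called POZ, with C2H2 zinc fingers. The zinc fingers read DNA sequence, and the BTB domain joins the proteins to one another and to corepressors such as NCOR and BCOR with histone deacetylases, and in some members to the ubiquitin ligase subunit Cul3. In mouse T cells the family is known for fixing lineage: Zbtb7b (ThPOK) commits thymocytes to the CD4 fate, Zbtb16 (PLZF) drives the innate-like programme of natural killer T cells, and Zbtb32 is induced on activation and limits T cell responses. The members were chosen by name, as the protein-coding genes whose mouse symbol starts with Zbtb and a digit and which had at least 10 counts summed over the 9 libraries. Of 41 such genes, 38 met the minimum, out of 43432 genes listed.

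The libraries came from regulatory T cells (Tregs), CD4 T cells that express Foxp3 and restrain immune responses. Tregs with high CD62L were sorted from C57BL/6 mice, stimulated with beads carrying antibodies to CD3 and CD28 in 2000 U/ml interleukin-2, and sequenced on day 4. The 4 Ezh2-deficient libraries are Ezh2-fl/fl and carry Foxp3-Cre-GFP together with the reporter R26-LSL-RFP. The 5 WT libraries carry the same Cre and red fluorescent reporter, with Ezh2-fl/+ in WT replicate 1 and Ezh2-+/+ in WT replicates 2 to 5. Both groups therefore carry the Cre, which is driven by Foxp3, so deletion is limited to cells that express or have expressed Foxp3. Ezh2 encodes the histone H3 methyltransferase of a Polycomb repressive complex, whose mark keeps genes silent. Age was not stated in the labels, and the samples are biological replicates per the design text.

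Total counts ran between 33718125 and 62201921 in Ezh2-deficient libraries and between 32469450 and 59796319 in WT libraries. Ezh2, the targeted gene, was at 152, 167, 164 and 159 CPM (counts per 1e6, with TMM-scaled library sizes) in Ezh2-deficient libraries, against 268, 332, 288, 233 and 360 CPM in WT libraries, with no overlap. The count covers the whole gene, so transcripts that lack only the floxed exons still add to it. Summed over 7 Treg markers, the level was 9709 to 10885 CPM in Ezh2-deficient libraries and 8876 to 9695 CPM in WT libraries, and 1 of the 7, Foxp3, passed the test as higher. DESeq2 also called Cd4 lower. The 2 CD8 markers summed to 57.1, 16.4, 14.2 and 130 CPM in Ezh2-deficient replicates 1 to 4 and 61.8, 63.2, 16.1, 147 and 70.1 CPM in WT replicates 1 to 5. Markers of natural killer cells (7 genes) summed to 5.78 to 38.1 CPM in Ezh2-deficient and 11.5 to 24.9 CPM in WT libraries, and B cell markers (6 genes) to 15.2 to 24.5 and 20.7 to 22.9 CPM. Of the B cell markers Cd79a was called lower, at 0.885 CPM in Ezh2-deficient libraries and 2.33 CPM in WT libraries (adjusted p = 0.00716), and Pax5 did not overlap, at 0.0785 and 0.361 CPM. Of 21 hypoxia genes tested, 0 passed in edgeR, with 0 at an unadjusted p under 0.05 and 0 calls in DESeq2 or limma-voom. With an offset for GC content in edgeR, 1 passed as higher, Ddit4. The mean of log2(CPM + 1) over the 21 genes varied widely within groups. It ran from 6.26 to 7.74 in Ezh2-deficient and from 6.29 to 7.75 in WT libraries, so modest differences could be missed. Over all 13685 genes tested in edgeR, 3001 passed and 5069 had an unadjusted p under 0.05. In these bulk libraries, fewer cells of a type and less RNA per cell cannot be told apart.

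Ezh2-deficient Tregs differed from WT Tregs in ZBTB transcripts in both directions. Zbtb32 was 3.44-fold lower, and Zbtb12, Zbtb3, Zbtb45, Zbtb42, Zbtb7a and Zbtb7b were lower by smaller factors. Zbtb10 was 2.33-fold higher, and Zbtb41, Zbtb20, Zbtb4, Zbtb26 and Zbtb37 were higher by smaller factors. Of the 37 members tested, 13 (35.1%) passed an adjusted p of 0.05, against 21.9% of all 13685 genes tested. Higher calls numbered 6 (16.2% of members, against 13.1% of all genes) and lower calls 7 (18.9%, against 8.8%). Without Ezh2-deficient replicate 1 or without WT replicate 3, 4 lower members passed, and without the library with the most CD8 marker signal in each group 2 did. Calls over all genes, higher and lower together, also fell under these settings, to 2172, 2350 and 2006, against 3001 with all libraries. These totals are not split by direction, so they give no share of lower calls to set beside the lower members. Whether the family's share differs from that of all genes was not tested. Adjusted p values are Benjamini-Hochberg values over all genes tested from edgeR's two-sided quasi-likelihood test, the threshold is 0.05, and a positive log2 fold change means a higher level in Ezh2-deficient libraries. The groups did not overlap for 12 members (32.4%), against 21.2% of all genes tested. In 6 of them the Ezh2-deficient libraries were all higher and in 6 all lower, against 12.5% and 8.69% of all genes. The median log2 fold change was 0.058 over the 37 members, with 21 positive and 16 negative, and 0.0026 over all genes. The family's summed level was 1448 to 1613 CPM in Ezh2-deficient libraries and 1442 to 1558 CPM in WT libraries, so the ranges overlapped.

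**Figure D1:**
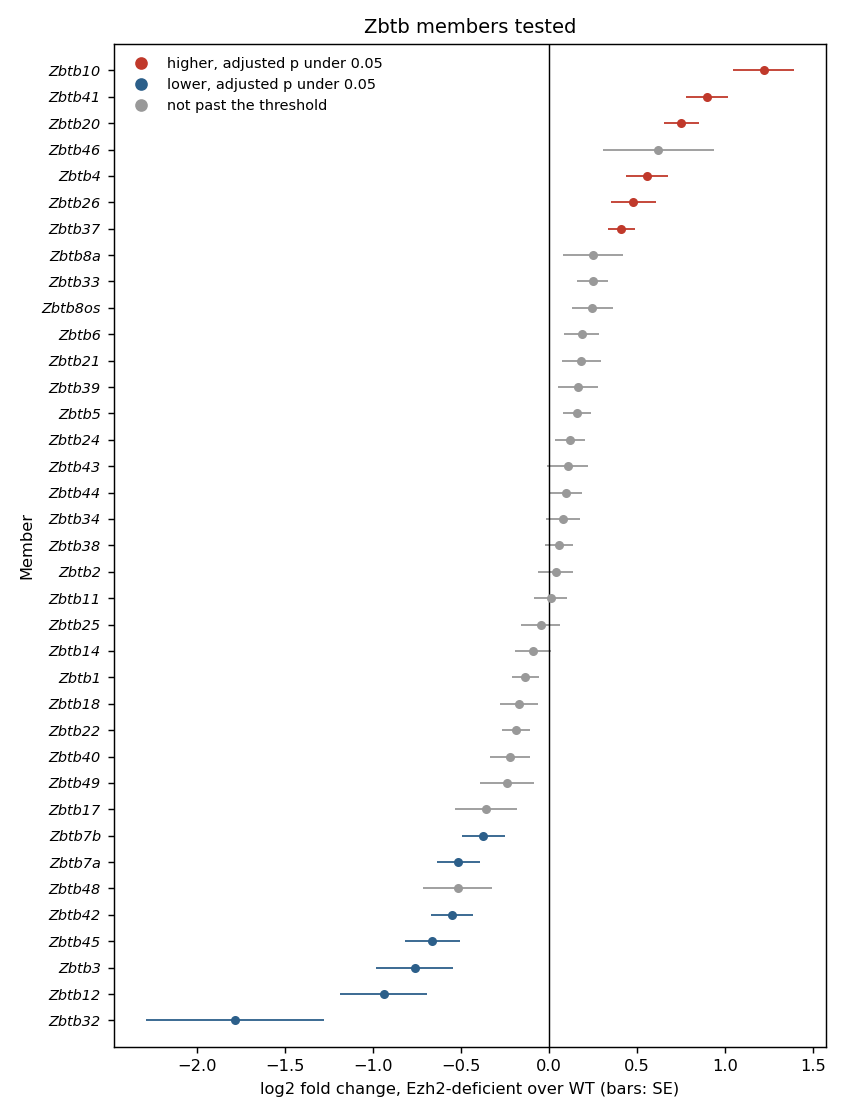
The log2 fold change, Ezh2-deficient over WT, of each of the 37 Zbtb members tested, as points with bars of 1 standard error, coloured by whether the member passed an adjusted p of 0.05. The called members span -1.78 (Zbtb32) to 1.22 (Zbtb10), and 24 members did not pass.

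The members with known roles in T cells included the most strongly lowered one. Zbtb32 (ENSMUSG00000006310, GRCm38 chromosome 7, 30589681 to 30598909, minus strand), a repressor described as binding GATA3 and as restraining cytokine production, had 17.2, 11.3, 6.80 and 38.1 CPM in Ezh2-deficient libraries, against 50.2, 44.7, 51.4, 94.5 and 76.4 CPM in WT libraries. Every Ezh2-deficient library lay below every WT library, although Ezh2-deficient replicate 4 stood well above the other 3. The means were 18.3 ± 13.8 CPM in Ezh2-deficient libraries (SD, n = 4) and 63.5 ± 21.2 CPM in WT libraries (SD, n = 5), a log2 fold change of -1.78 (SE 0.51, adjusted p = 0.0392). This call is close to the threshold: it was kept in 11 of 23 alternative analyses, which changed the scaling, filter, tool, covariates or libraries, and lost in 8 of the 9 that left out 1 library, all but Ezh2-deficient replicate 4, with adjusted p values between 0.0508 and 0.0879 in those 8, while the log2 fold change stayed between -2.45 and -1.53 in all 23. Gata3 itself did not pass (76.2 ± 13.3 CPM in Ezh2-deficient libraries and 75.1 ± 13.7 CPM in WT libraries, log2 fold change 0.02, adjusted p = 0.94).

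Zbtb32 and the CD8 markers were highest in the same library of each group. The natural killer markers (17.8, 6.69, 5.78 and 38.1 CPM) and a hypoxia score (7.55, 6.28, 6.26 and 7.74, the mean of log2(CPM + 1) over 21 genes) had the same order over Ezh2-deficient replicates 1 to 4, and WT replicate 4 also had the highest hypoxia score of its group, 7.75. Over the 4 Ezh2-deficient libraries the order of Zbtb32 and the CD8 markers was the same, with replicate 4 first at 38.1 CPM of Zbtb32 and 130 CPM of CD8 markers and replicate 3 last at 6.80 and 14.2 CPM. WT replicate 4 led its group at 94.5 and 147 CPM, but WT replicate 3 had only 16.1 CPM of CD8 markers and 51.4 CPM of Zbtb32. Without Ezh2-deficient replicate 4 and WT replicate 4, which lead in both the CD8 markers and the hypoxia score, the Zbtb32 fold change was larger (log2 fold change -2.24, adjusted p = 0.00468). With the hypoxia score as covariate it was -1.91 (adjusted p = 0.0136).

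**Figure D2:**
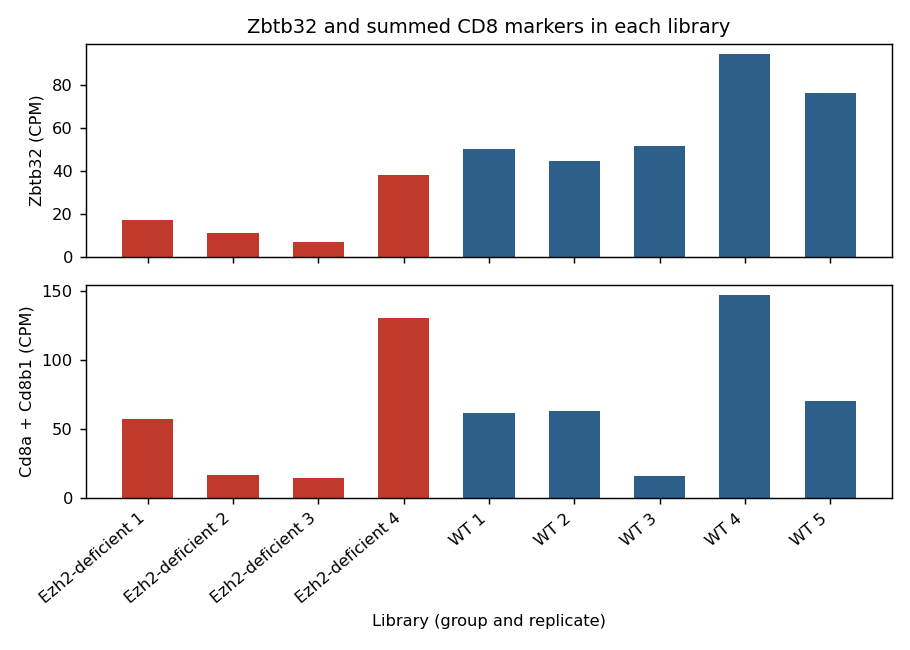
Bars give Zbtb32 (upper panel) and the sum of Cd8a and Cd8b1 (lower panel) in CPM for each library, Ezh2-deficient libraries at the left and WT libraries at the right. Zbtb32 is at most 38.1 CPM in the Ezh2-deficient libraries and at least 44.7 CPM in the WT libraries, whereas the CD8 markers overlap, at 14.2 to 130 CPM in the Ezh2-deficient libraries and 16.1 to 147 CPM in the WT libraries.

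The pair of closest relatives, Zbtb7b and Zbtb7a, were both lower. Zbtb7b (ENSMUSG00000028042, chromosome 3, 89377644 to 89394776, minus strand) had 82.4, 106, 89.0 and 79.2 CPM in Ezh2-deficient libraries, against 103, 98.5, 138, 132 and 105 CPM in WT libraries. One Ezh2-deficient library, replicate 2, reached into the WT range, so the groups overlapped. The means were 89.1 ± 11.8 CPM in Ezh2-deficient libraries and 115 ± 18.05 CPM in WT libraries (log2 fold change -0.37, SE 0.12, adjusted p = 0.0455), and the call was kept in 12 of 23 alternatives. It was lost without Ezh2-deficient replicate 1, 3 or 4 and without WT replicate 3 or 4 (adjusted p between 0.0741 and 0.0978). Zbtb7a (LRF; ENSMUSG00000035011, chromosome 10, 81135220 to 81152995, plus strand), which shares part of the CD4 lineage role with Zbtb7b and represses fetal globin genes in human red cells, had 48.4, 55.3, 47.8 and 39.8 CPM in Ezh2-deficient libraries, against 58.1, 59.1, 82.0, 75.7 and 66.5 CPM in WT libraries. Its groups did not overlap, and the means were 47.8 ± 6.32 CPM in Ezh2-deficient libraries and 68.3 ± 10.4 CPM in WT libraries (log2 fold change -0.51, SE 0.12, adjusted p = 0.0124). Without the library with the most CD8 marker signal in each group, neither passed (Zbtb7b -0.27, adjusted p = 0.196; Zbtb7a -0.39, adjusted p = 0.0639).

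Zbtb20 (ENSMUSG00000022708, chromosome 16, 42875881 to 43642602, plus strand), a repressor best known from hippocampus and liver and also described in a subset of mouse Tregs, was higher. It had 76.0, 59.8, 72.5 and 63.4 CPM in Ezh2-deficient libraries, against 41.7, 42.2, 41.8, 42.8 and 33.4 CPM in WT libraries. The lowest Ezh2-deficient library was above the highest WT library by more than the whole WT range, and the means were 67.9 ± 7.56 CPM in Ezh2-deficient libraries and 40.4 ± 3.91 CPM in WT libraries (log2 fold change 0.75, SE 0.10, adjusted p = 0.000425). The call was kept in all 23 alternatives.

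Zbtb16, Zbtb1, Zbtb17 and Zbtb25 complete the T cell set, and none of them was called. Zbtb16 (ENSMUSG00000066687, chromosome 9, 48654297 to 48836222, minus strand) was almost silent, with 0, 7, 4 and 9 counts in Ezh2-deficient libraries and 0, 7, 4, 1 and 15 counts in WT libraries. At 47 counts in all it fell under edgeR's filter, and no difference was detectable at this depth. Of the 7 natural killer markers only Ncr1 had 0 counts in all libraries, while the highest library had 7.26 CPM of Klrk1, 6.97 CPM of Klrd1 and 17.2 CPM of Eomes. Their part in the counts of Zbtb16 was not tested. Zbtb1, which is needed for lymphocyte development in mice, had 107, 95.7, 110 and 99.5 CPM in Ezh2-deficient libraries, against 111, 107, 113, 108 and 126 CPM in WT libraries (log2 fold change -0.13, adjusted p = 0.221). Zbtb17 (MIZ1), the partner through which Myc represses cell cycle inhibitor genes, had 32.2, 32.9, 25.2 and 26.0 CPM in Ezh2-deficient libraries, against 33.4, 36.1, 43.8, 48.6 and 24.3 CPM in WT libraries (log2 fold change -0.36, adjusted p = 0.165). WT replicate 5 alone lay below the Ezh2-deficient range, and without it Zbtb17 passed as lower (-0.49, adjusted p = 0.0291). Zbtb25 had 26.5, 30.4, 29.5 and 25.2 CPM in Ezh2-deficient libraries, against 33.4, 29.0, 23.8, 27.6 and 30.3 CPM in WT libraries (log2 fold change -0.05, adjusted p = 0.787). In this set of 7 tested genes, 1 was thus called higher (14.3%, against 13.1% of all genes) and 3 lower (42.9%, against 8.8%). The set was chosen with earlier results of these data known, so its shares cannot be read as a result about it. Without the library with the most CD8 marker signal in each group, 1 higher and 1 lower call were left, Zbtb20 and Zbtb32, and with an offset for GC content the lower calls were Zbtb1 and Zbtb7a.

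The upstream sequences of these T cell members differ in CpG content, the dinucleotide whose density marks the promoters that Polycomb complexes tend to occupy. The windows below are the 250 bases upstream of a RefSeq start on GRCm38.p6, read 5′ to 3′ on the strand of the gene, with each CG in capitals. They are shown for the called members of the T cell set, where the window holds no annotated exon. Zbtb32 has 2 starts with such windows, chr7:30598910-30599159 with 5 CpG and chr7:30592943-30593192 with 2 CpG, both on the minus strand. The bases just after the second of these, the inner start, were not found in an annotated transcript of the gene. The Zbtb7b window is chr3:89387672-89387921 on the minus strand, with 5 CpG. The Zbtb20 window is chr16:43247034-43247283 on the plus strand, with 3 CpG. The Zbtb7a window is chr10:81136021-81136270 on the plus strand, with 26 CpG. The windows of Zbtb7b, Zbtb20 and Zbtb7a lie inside the span of their gene, before an internal start.
Zbtb32, outer start: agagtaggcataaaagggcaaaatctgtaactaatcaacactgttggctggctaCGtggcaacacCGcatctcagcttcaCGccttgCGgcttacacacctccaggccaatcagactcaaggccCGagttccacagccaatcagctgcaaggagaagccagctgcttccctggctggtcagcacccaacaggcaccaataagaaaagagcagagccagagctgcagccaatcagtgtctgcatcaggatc
Zbtb32, inner start: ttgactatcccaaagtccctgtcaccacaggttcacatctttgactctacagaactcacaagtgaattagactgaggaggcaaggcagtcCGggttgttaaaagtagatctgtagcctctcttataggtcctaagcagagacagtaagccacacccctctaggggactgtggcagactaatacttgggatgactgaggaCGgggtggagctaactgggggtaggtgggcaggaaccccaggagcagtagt
Zbtb7b: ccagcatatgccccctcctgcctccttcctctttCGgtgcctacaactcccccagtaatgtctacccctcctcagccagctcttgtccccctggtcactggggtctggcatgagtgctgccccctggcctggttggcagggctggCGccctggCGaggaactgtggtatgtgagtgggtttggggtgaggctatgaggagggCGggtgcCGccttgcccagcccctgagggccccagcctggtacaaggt
Zbtb20: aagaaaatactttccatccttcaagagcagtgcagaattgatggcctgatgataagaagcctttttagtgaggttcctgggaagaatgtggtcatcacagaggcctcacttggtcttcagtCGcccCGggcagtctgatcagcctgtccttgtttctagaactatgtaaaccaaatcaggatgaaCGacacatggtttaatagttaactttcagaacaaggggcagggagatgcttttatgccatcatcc
Zbtb7a: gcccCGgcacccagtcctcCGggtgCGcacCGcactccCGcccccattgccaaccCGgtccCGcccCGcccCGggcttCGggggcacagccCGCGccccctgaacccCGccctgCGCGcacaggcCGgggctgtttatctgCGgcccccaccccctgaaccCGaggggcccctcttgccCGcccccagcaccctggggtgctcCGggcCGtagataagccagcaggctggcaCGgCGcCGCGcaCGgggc

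Only the Zbtb7a window among those printed is CpG-dense, and the called T cell members thus include CpG-poor and CpG-rich windows. RefSeq windows were matched for 34 of the 38 members, and each gene was taken at its start with the most CpG. The median was 22.5 CpG per window over members (0 to 47) and 6 over all 27025 genes with a window, expressed here or not. Members are protein-coding genes that met a count minimum. The comparison was not limited to such genes, so its gaps cannot be read as a trait of the family. Members called higher had a median of 18 (5 genes, 3 to 38), members called lower 20 (7 genes, 5 to 30) and the other members 27.5. The E-box CACGTG, which is its own reverse complement, was in the windows of 4 members (11.8%) and of 6.17% of the same 27025 genes. TATAAA on either strand was in those of 2 members (5.88%) and of 12.6% of these genes. Neither sequence was in a window of a called member. Zbtb10, the most strongly raised member, had no matched window and is in none of these values.

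**Figure D3:**
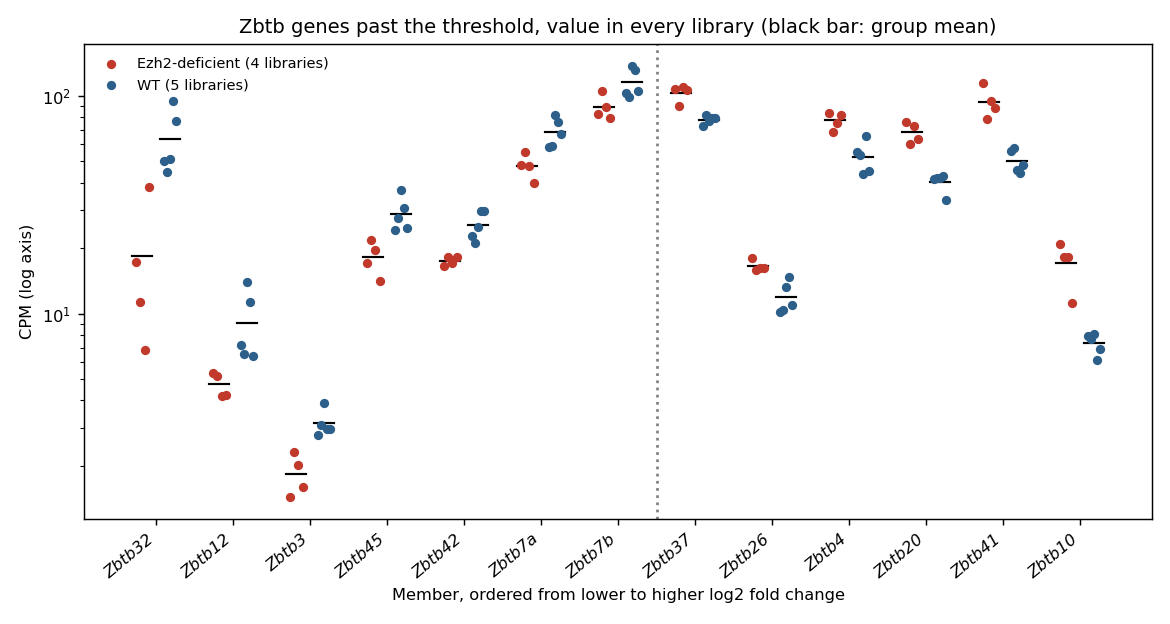
Each point is a library's level in CPM (log axis) for the 13 called members, Ezh2-deficient libraries at the left of each pair and WT libraries at the right, with a bar at the group mean; members run from the lowest to the highest log2 fold change, and the dotted line parts lower from higher calls. Zbtb7b is the one called member whose groups overlap.

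Of 3 members that bind methylated CpG and 3 that bind telomeric repeats, 1 each passed in edgeR, both higher. This was 33.3% of each short list, against 13.1% of all genes called higher. Zbtb4, a methyl-CpG binder that represses transcription, had 83.9, 68.1, 75.1 and 81.9 CPM in Ezh2-deficient libraries, against 55.2, 53.6, 43.6, 65.6 and 45.0 CPM in WT libraries. The groups did not overlap (77.2 ± 7.17 CPM in Ezh2-deficient libraries and 52.6 ± 8.88 CPM in WT libraries, log2 fold change 0.55, SE 0.12, adjusted p = 0.00697). The other methyl-CpG binders did not pass: Zbtb33 (Kaiso), which is X-linked, averaged 73.8 ± 7.03 CPM in Ezh2-deficient libraries and 62.1 ± 4.85 CPM in WT libraries (log2 fold change 0.25, adjusted p = 0.0599), and Zbtb38 averaged 88.7 ± 5.99 and 85.2 ± 6.02 CPM (0.06, adjusted p = 0.631). Zbtb33 passed in 2 of 23 alternatives, without WT replicate 1 (adjusted p = 0.0486) and with a hypoxia score as covariate (adjusted p = 0.0353).

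Zbtb10, a zinc finger protein that binds variant telomere repeats in human cells, was the most strongly raised member (ENSMUSG00000069114, chromosome 3, 9250602 to 9285333, plus strand). It had 20.9, 18.1, 18.2 and 11.2 CPM in Ezh2-deficient libraries, against 7.95, 7.68, 8.12, 6.11 and 6.86 CPM in WT libraries. The Ezh2-deficient libraries all lay above the WT range, with replicate 4 nearest to it, and the means were 17.1 ± 4.13 CPM in Ezh2-deficient libraries and 7.34 ± 0.841 CPM in WT libraries (log2 fold change 1.22, SE 0.17, adjusted p = 0.000601). It passed in all 23 alternatives. Of the other telomere binders, Zbtb48 (TZAP), known for trimming telomeres in human cells, had 10.002 ± 1.49 CPM in Ezh2-deficient libraries and 14.3 ± 3.98 CPM in WT libraries and did not pass in edgeR (log2 fold change -0.52, adjusted p = 0.0751), though it did in DESeq2 (-0.53, adjusted p = 0.0349) and without WT replicate 1 (-0.63, adjusted p = 0.0355). Zbtb40 did not pass (-0.22, adjusted p = 0.18).

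Of the 5 members known mainly from the nervous system or muscle, 2 were lower (40%, against 8.8% of all genes). The member Zbtb20 was higher (20%, against 13.1%). Zbtb42, a close relative of Zbtb18 known from skeletal muscle, had 16.6, 18.3, 17.1 and 18.2 CPM in Ezh2-deficient libraries, against 22.7, 21.2, 25.1, 29.7 and 29.7 CPM in WT libraries. Its Ezh2-deficient libraries were tightly grouped below the WT range (17.5 ± 0.853 CPM against 25.7 ± 3.94 CPM in WT libraries, log2 fold change -0.55, SE 0.12, adjusted p = 0.00728), and it passed in all 23 alternatives. Zbtb45, known from glial differentiation, had 17.1, 21.9, 19.7 and 14.2 CPM in Ezh2-deficient libraries, against 24.2, 27.6, 37.1, 30.5 and 24.7 CPM in WT libraries. The groups did not overlap (log2 fold change -0.66, SE 0.15, adjusted p = 0.0106). Without the library with the most CD8 marker signal in each group, Zbtb45 missed the threshold (-0.54, adjusted p = 0.0527). Zbtb18 (RP58), a repressor of cortical development, averaged 71.1 ± 6.61 CPM in Ezh2-deficient libraries and 79.9 ± 11.7 CPM in WT libraries (-0.17, adjusted p = 0.278), and Zbtb21 did not pass either (0.18, adjusted p = 0.259).

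Zbtb2, Zbtb5 and Zbtb49, known from human cells as regulators of the cell cycle inhibitor gene for p21, did not pass in the main test. Zbtb5 passed as higher with an offset for GC content (adjusted p = 0.0333 in edgeR). Zbtb2 gave a log2 fold change of 0.04 (adjusted p = 0.81), Zbtb5 of 0.16 (adjusted p = 0.175) and Zbtb49 of -0.24 (adjusted p = 0.283). With Zbtb17, Zbtb4 and Zbtb7a, which have also been tied to p21 or p53, the list of 6 had 1 higher call, Zbtb4, and 1 lower call, Zbtb7a. Each was 16.7% of the list, against 13.1% higher and 8.8% lower of all genes. The members known from other blood cells were Zbtb46, Zbtb24 (whose human gene is mutated in an immunodeficiency syndrome), Zbtb11 and Zbtb14. They had 0 calls in edgeR, DESeq2 or limma-voom, against 21.9% of all genes in edgeR. In edgeR 0 of them had an unadjusted p under 0.05, against 5069 of all 13685 genes tested. Zbtb46, a marker of classical dendritic cells, had 2.68, 3.10, 2.59 and 1.76 CPM in Ezh2-deficient libraries, against 0.879, 2.07, 1.63, 2.51 and 1.18 CPM in WT libraries. Its groups overlapped, and its SE was wide (log2 fold change 0.62, SE 0.32, adjusted p = 0.173). The 8 myeloid and dendritic markers summed to 3.37 to 4.03 CPM in Ezh2-deficient libraries and 1.29 to 2.72 CPM in WT libraries. The list's genes did not move together. Adgre1, the macrophage marker, averaged 3.23 CPM in Ezh2-deficient libraries and 0.956 CPM in WT libraries and was called higher. Flt3 averaged 0.0707 CPM in Ezh2-deficient libraries and 0.331 CPM in WT libraries and Cd14 0.00704 and 0.204 CPM, both without overlap, and DESeq2 called both lower. Batf3, a factor of classical dendritic cells, averaged 0.155 and 0.516 CPM (adjusted p = 0.135), and Siglech had 0 counts in Ezh2-deficient and 2 in WT libraries. Their part in the level of Zbtb46 was not tested.

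Among the called members outside these sets, Zbtb41 (ENSMUSG00000033964, chromosome 1, 139422288 to 139453005, plus strand) was the highest of the rises after Zbtb10. It had 115, 78.0, 94.7 and 87.5 CPM in Ezh2-deficient libraries, against 56.1, 57.7, 45.9, 44.1 and 48.2 CPM in WT libraries. The groups were well apart (93.7 ± 15.5 CPM in Ezh2-deficient libraries and 50.4 ± 6.15 CPM in WT libraries, log2 fold change 0.89, SE 0.12, adjusted p = 0.000426), in all 23 alternatives. Zbtb37 had 108, 89.6, 109 and 107 CPM in Ezh2-deficient libraries, against 72.5, 81.5, 76.7, 79.0 and 79.3 CPM in WT libraries (log2 fold change 0.41, SE 0.079, adjusted p = 0.0037). Its groups did not overlap, but 2942 of its 18814 exon bases lie opposite exons of Serpinc1, and the strand setting of the counting is not given in the sources used here. Zbtb26 had 17.98, 16.0, 16.2 and 16.2 CPM in Ezh2-deficient libraries, against 10.2, 10.4, 13.2, 14.7 and 11.0 CPM in WT libraries (log2 fold change 0.48, SE 0.13, adjusted p = 0.0207). It missed the threshold in 7 of 23 alternatives, among them those that left out Ezh2-deficient replicate 1, Ezh2-deficient replicate 3, WT replicate 1 or WT replicate 2 (adjusted p between 0.0517 and 0.0729). It shares 449 exon bases with its neighbour Zbtb6 on the same strand.

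Zbtb12 and Zbtb3 were weakly expressed and lower. Zbtb12, which lies in the major histocompatibility region and shares 161 exon bases with the complement gene C2 on the other strand, had 5.33, 5.18, 4.21 and 4.26 CPM in Ezh2-deficient libraries, against 7.22, 6.54, 14.0, 11.3 and 6.41 CPM in WT libraries. The WT libraries fell into a higher pair, replicates 3 and 4, and 3 that lay nearer to the Ezh2-deficient range (log2 fold change -0.94, SE 0.25, adjusted p = 0.0183). Zbtb3 had 1.44, 2.33, 2.02 and 1.61 CPM in Ezh2-deficient libraries, against 2.79, 3.08, 3.90, 2.96 and 2.95 CPM in WT libraries, with no overlap (log2 fold change -0.76, SE 0.22, adjusted p = 0.0263). It missed the threshold when Ezh2-deficient replicate 1, Ezh2-deficient replicate 4 or WT replicate 3 was left out (adjusted p between 0.0552 and 0.0631). Without the library with the most CD8 marker signal in each group, both missed the threshold (Zbtb12 -0.80, adjusted p = 0.0917; Zbtb3 -0.72, adjusted p = 0.0932), and of the 7 lower members only Zbtb32 and Zbtb42 still passed.

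The 24 members that were tested and not called had log2 fold changes between -0.52 and 0.62, with 15 positive and 9 negative, and adjusted p values between 0.0599 and 0.959. Besides those already described they were Zbtb6, Zbtb8a, Zbtb8os, Zbtb22, Zbtb34, Zbtb39, Zbtb43 and Zbtb44. Zbtb22, a neighbour of the tapasin gene Tapbp with which it shares 149 exon bases, stood at 40.8 ± 2.72 CPM in Ezh2-deficient libraries and 46.5 ± 2.33 CPM in WT libraries (log2 fold change -0.19, adjusted p = 0.106). Zbtb8os belongs by its symbol alone: it encodes archease, a factor of RNA ligation, and not a BTB zinc finger protein (log2 fold change 0.25, adjusted p = 0.147). Of the 3 genes under the count minimum, Zbtb7c had 0 counts in Ezh2-deficient and 1 in WT libraries, Zbtb8b 0 and 3, and Zbtb9 0 in both. Zbtb9 shares 2938 of its 3482 exon bases with Ggnbp1 on the same strand, so its count is uncertain.

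Per kilobase of exon, the order of the members differed between the groups at the top. In RPKM, which is CPM divided by exon length, Zbtb7b led in Ezh2-deficient libraries at 15.9 ± 2.10 RPKM and was second in WT libraries at 20.6 ± 3.23 RPKM. Its Ezh2-deficient range, 14.2 to 18.9 RPKM, overlapped those of Zbtb22 (14.0 to 16.5 RPKM) and Zbtb33 (12.9 to 16.2 RPKM), so these did not differ beyond their spread. Zbtb32 was 11th in Ezh2-deficient libraries at 7.78 ± 5.86 RPKM, with places between 2 and 30 in single libraries, and led in WT libraries at 26.9 ± 8.998 RPKM, with places 1 to 2. In WT libraries the ranges of Zbtb32 and Zbtb7b overlapped, at 19.0 to 40.1 RPKM and 17.6 to 24.6 RPKM, so these neighbours did not differ beyond their spread. Zbtb22, Zbtb33 and Zbtb18 took places 2 to 4 in Ezh2-deficient libraries and 3, 5 and 4 in WT libraries. Zbtb41 was 5th in Ezh2-deficient libraries and 18th in WT libraries, Zbtb4 6th and 17th, and Zbtb7a 16th and 6th. Zbtb46 (0.297 RPKM in Ezh2-deficient and 0.194 RPKM in WT libraries) and Zbtb16 (0.0202 and 0.0241 RPKM) closed the order in both groups. The spread between libraries was small for most members: the coefficient of variation of CPM had a median of 9.97% in Ezh2-deficient and 12.2% in WT libraries over the 37 tested, and was under 20% in WT libraries for 32 of them.

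**Figure D4:**
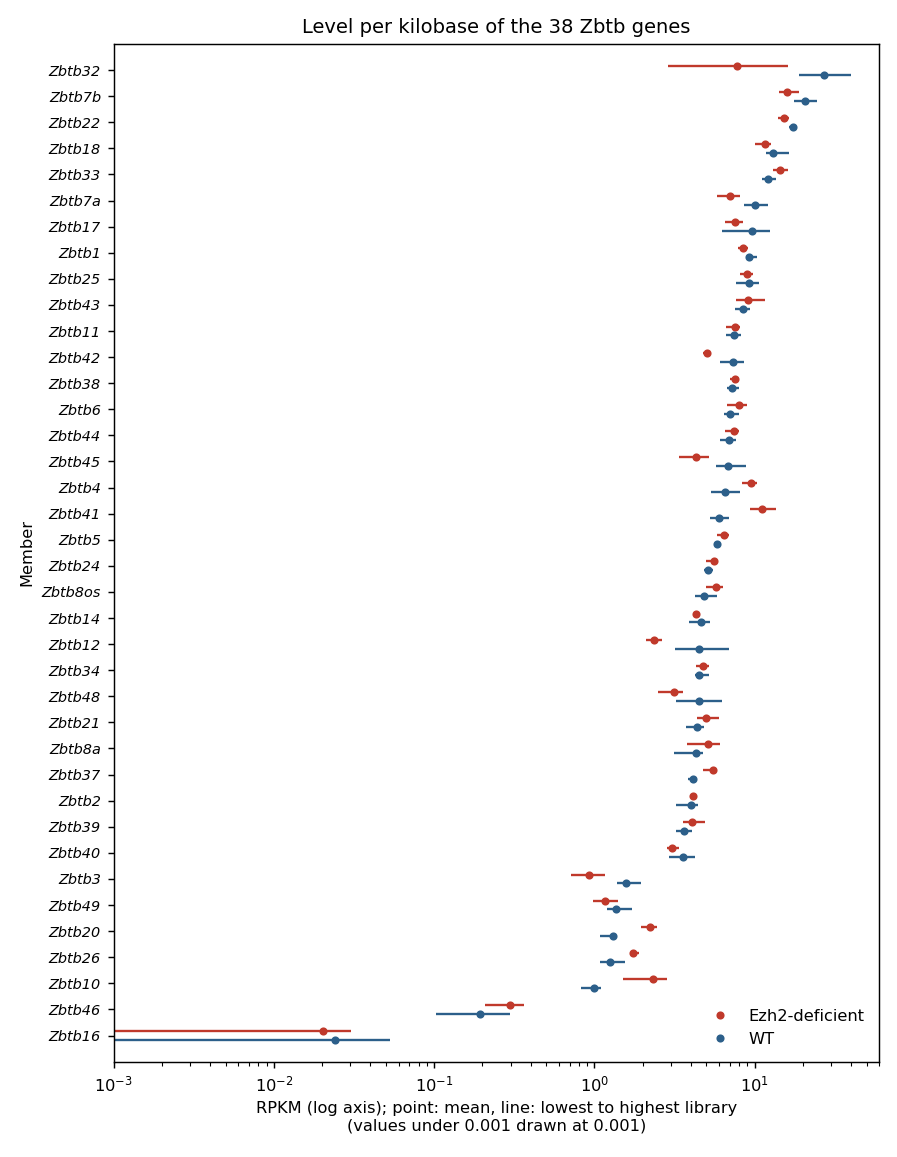
Level of the 38 members in RPKM (log axis) as the group mean (point) and the range over libraries (line), Ezh2-deficient above WT for each gene, ordered by the WT mean. Zbtb32 has the widest Ezh2-deficient range among the well expressed members, 2.89 to 16.1 RPKM, below its WT range of 19.0 to 40.1 RPKM.

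Lower and higher members differed in base composition. In their longest transcripts, the 6 higher members had 36.9 to 52.6% GC (median 42.2%) and the 7 lower members 54.0 to 61.2% (median 57.4%), with no overlap between these ranges, while members not called had 39.2 to 59.4% (median 47.8%). Across the 37 members, log2 fold change and GC content had a Pearson correlation of -0.62 and a Spearman correlation of -0.66, and the Spearman correlation with transcript length was 0.59. These are descriptions: the genes share the same libraries and are not independent. The same trend ran through all genes, weaker, with a Spearman correlation of -0.28 over 13590 genes. In 5 equal classes of all genes from low to high GC, the median log2 fold changes were 0.14, 0.062, -0.0056, -0.082 and -0.17. The classes held 11, 6, 4, 7 and 9 members, of which 4, 1, 0, 1 and 0 were called higher and 0, 0, 0, 2 and 5 lower. Calls over all genes had the same gradient. Higher calls made up 19.0, 15.6, 13.2, 10.3 and 7.62% of the genes in these classes, and lower calls 2.28, 5.56, 8.94, 13.1 and 14.3%. The deviation of genes in the class with the most GC also varied within groups. On the log2 scale it was -0.095, 0.070, -0.087 and -0.20 in Ezh2-deficient replicates 1 to 4. In WT replicates 1 to 5 it was -0.012, 0.013, 0.23, 0.18 and -0.091. WT replicates 3 and 4 were also the highest WT libraries for the lower members Zbtb12, Zbtb7a, Zbtb7b and Zbtb45. They were not the highest pair for Zbtb32, Zbtb42 or Zbtb3. Whether this deviation sets the levels of these members was not tested.

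With an offset for GC content in each library, 10 of the 13 calls were kept. Zbtb10 (log2 fold change 1.15), Zbtb41 (0.73), Zbtb20 (0.65), Zbtb4 (0.61) and Zbtb37 (0.29) stayed higher, and Zbtb12 (-0.70), Zbtb3 (-0.68), Zbtb45 (-0.56), Zbtb42 (-0.40) and Zbtb7a (-0.37) stayed lower. Zbtb26 (0.33, adjusted p = 0.124), Zbtb32 (-1.61, adjusted p = 0.0674) and Zbtb7b (-0.19, adjusted p = 0.0514) missed the threshold. Zbtb1 passed as lower (-0.26, adjusted p = 0.0196) and Zbtb5 as higher (0.23, adjusted p = 0.0333). With transcript length added to the offset, Zbtb37 missed it too (0.13, adjusted p = 0.178) and Zbtb7b passed (-0.22, adjusted p = 0.0325).

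**Figure D5:**
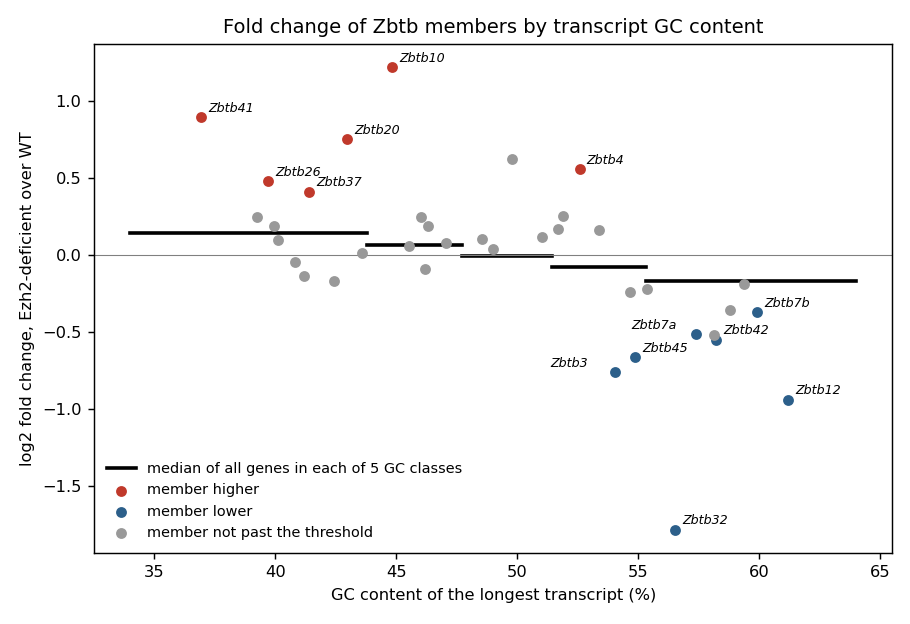
The log2 fold change of each tested member, Ezh2-deficient over WT, against the GC percentage of its longest transcript; black lines give the median of all genes in each of 5 GC classes. Higher members lie at 36.9 to 52.6% GC and lower members at 54.0 to 61.2% GC. From low to high GC, the class medians are 0.14, 0.062, -0.0056, -0.082 and -0.17 over all genes. Over the members they are 0.18, 0.13, 0.11, 0.16 and -0.51 (not drawn).

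The 38 members lie on 14 chromosomes, with 0 on chromosome 6, which holds Ezh2, and 1 on the X chromosome. Among the members are 4 pairs of neighbours. Zbtb25 and Zbtb1, which are divergent genes on chromosome 12 with 663 bases between them, had log2 fold changes of -0.05 and -0.13. Zbtb34 and Zbtb43, 18962 bases apart on chromosome 2, had 0.08 and 0.11, and Zbtb8os and Zbtb8a, which overlap on opposite strands of chromosome 4, had 0.25 and 0.25. Zbtb6 and Zbtb26, which overlap on chromosome 2, had 0.18 and 0.48. None of these pairs had both members called.

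BTB zinc finger genes that go by other symbols were not called in edgeR. Of 8 tested, 0 passed, against 21.9% of all genes, and 3 had an unadjusted p under 0.05, against 5069 of all 13685 genes tested. DESeq2 called 1, Patz1, as lower, and limma-voom called 0. Bcl6, the repressor that specifies follicular helper T cells, averaged 9.46 ± 1.49 CPM in Ezh2-deficient libraries and 8.61 ± 1.29 CPM in WT libraries (log2 fold change 0.14, adjusted p = 0.556). Patz1 (MAZR), a regulator of the Cd8 genes and of Zbtb7b, averaged 40.6 ± 5.48 and 49.0 ± 1.94 CPM (-0.27, adjusted p = 0.0613). Of 23 genes for corepressors that BTB domains recruit, 4 (17.4%) passed, near the 21.9% of all genes: Cul3 (log2 fold change 0.35, adjusted p = 0.0337) and the NCOR complex gene Tbl1xr1 (0.32, adjusted p = 0.0331) rose, and the deacetylase complex genes Mta2 (-0.23, adjusted p = 0.0303) and Hdac7 (-0.45, adjusted p = 0.0459) fell. With an offset for GC content these 4 missed the threshold (Cul3 0.20, Tbl1xr1 0.21, Mta2 -0.16 and Hdac7 -0.25, adjusted p between 0.064 and 0.13), and Bcorl1 passed as higher (0.37, adjusted p = 0.0264). Ncor1 averaged 540 ± 22.3 CPM in Ezh2-deficient libraries and 509 ± 45.4 CPM in WT libraries (0.09, adjusted p = 0.472).

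Genes of the circuits around the lineage regulators were listed as well. These lists were chosen with earlier results of these data known, so their shares cannot be read as results about the circuits. Among 15 genes of the Zbtb7b and Runx axis, which sets CD4 against CD8 fate, 2 were higher and 1 lower, 20% in all, near the 21.9% of all genes. Lef1 (log2 fold change 0.50, adjusted p = 0.00418) and Tox (0.33, adjusted p = 0.0275), both tied to CD4 T cell development, rose, and the progenitor factor Myb fell (-0.82, adjusted p = 0.00503). With an offset for GC content Lef1 and Myb kept their calls, Tox did not, and Socs1 passed as higher. Runx3, the CD8 lineage factor that opposes Zbtb7b, gave 0.15 (adjusted p = 0.346), Cd8a gave -0.62 with an SE of 1.45 (adjusted p = 0.796), and Cd4 gave -0.19 (adjusted p = 0.0644). Among 14 tested genes of the innate-like programme tied to Zbtb16, 3 were higher and 2 lower (35.7%, against 21.9% of all genes). The interleukin-18 receptor genes Il18r1 (1.27, adjusted p = 0.0016) and Il18rap (0.69, adjusted p = 0.0365) and the adhesion receptor Cd44 (0.51, adjusted p = 0.00287) rose, while the chemokine receptor gene Ccr6 (-2.40, adjusted p = 0.00248) was among those that fell.

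Of 9 genes of the Zbtb17 and Myc network, 5 were higher (55.6%, against 13.1% of all genes) and 1 lower (11.1%, against 8.8%). The list was chosen with earlier results of these data known, so its share cannot be read as a result about the network. Whether Zbtb17 has a part in these changes was not tested. The cyclin-dependent kinase inhibitor genes Cdkn2b (log2 fold change 1.92, adjusted p = 0.000282), Cdkn1a (1.03, adjusted p = 0.00108) and Cdkn1c (1.19, adjusted p = 0.00675) rose, as did Mxd1 (0.49, adjusted p = 0.00493) and Mxd4 (0.69, adjusted p = 0.00532), whose products compete with Myc for Max. Max fell (-0.43, adjusted p = 0.00923). Myc gave -0.38 and did not pass in edgeR (adjusted p = 0.0599), though DESeq2 called it lower. Zbtb17 itself was not called, as given above.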

How the data were processed

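The authors deposited raw whole-number counts for 43432 Ensembl gene identifiers in 9 libraries, which per the labels' protocols were made with a stranded mRNA kit. STAR and the build GRCm38 are named in the submitters' processing notes; how reads were assigned to genes, with which strand option and annotation, is not stated there. Symbols, biotypes, positions and exon lengths were taken from GENCODE M21 (42548 identifiers found), and upstream sequences from RefSeq on GRCm38.p6.

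Genes with a count numbered 22839, of which 13685 passed filterByExpr. They were tested with edgeR 4.0.16 in R 4.3.3 (robust quasi-likelihood F-test, TMM scaling, two-sided, Benjamini-Hochberg adjustment), with a biological coefficient of variation of 0.206. CPM were scaled with the TMM factors, and RPKM divides CPM by exon length. Counts come from reads without molecular identifiers. Libraries of a group differed by more than sampling noise (lowest chi-square per degree of freedom 23.6). The test was tried on simulated counts.

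Values are given for every member with a T cell role or past the threshold, and the other members by range and counts; of other lists, up to 4 genes with the smallest adjusted p and fixed partners such as Bcl6 and Ncor1 are named. Further genes, such as Gata3, Zbtb46, Bcorl1 and the markers given singly, were chosen after their values were seen. The values of 1 listed gene are not reported here. Members and lists were chosen with earlier results of these data known, so the share of a list called cannot be read as a result about that list. Alternatives were other scalings and filters, DESeq2 1.42.0, limma-voom (limma 3.58.1), the replicate number as a block, a hypoxia score or sex as covariate and each library left out. Leaving out the library with the highest CD8 markers in each group (130 CPM in Ezh2-deficient replicate 4 and 147 CPM in WT replicate 4) and offsets for GC content and length were added after the data were seen.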

Additional observations from a re-analysis of the deposited data

Results flagged for a closer look

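In 9 of 74 sets of values (37 members in 2 groups), 1 library stood apart from the others of its group by Dixon's test at 95%, where chance gives about 1 in 20. Zbtb1 was at 126 CPM in WT replicate 5, against 107 to 113 CPM in the other WT libraries. Zbtb20 was at 33.4 CPM in WT replicate 5, against 41.7 to 42.8 CPM in the others. Zbtb34 was at 34.1 CPM in WT replicate 5, against 28.1 to 29.1 CPM in the others. Zbtb18 was at 100.5 CPM in WT replicate 3, against 71.9 to 77.3 CPM in the others, and Zbtb3 was at 3.90 CPM there, against 2.79 to 3.08 CPM. Zbtb8a was at 7.30 CPM in WT replicate 4, against 10.2 to 11.1 CPM. Among Ezh2-deficient libraries, Zbtb24 was at 25.6 CPM in replicate 3 (29.3 to 30.0 CPM in the others), Zbtb26 at 17.98 CPM in replicate 1 (16.0 to 16.2 CPM) and Zbtb37 at 89.6 CPM in replicate 2 (107 to 109 CPM). The groups of Zbtb20, Zbtb3, Zbtb26 and Zbtb37 did not overlap with these libraries included.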

How the results depend on the processing

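Each of the 37 members was refitted under 23 alternatives, 3 of them added after the data were seen. Of 851 values, 781 kept their direction and side of the threshold, 38 lost a call, 8 gained one and 24 changed sign. No scaling moved the median of all genes by over 0.1. Zbtb10, Zbtb20, Zbtb41, Zbtb4 and Zbtb42 passed in all 23 alternatives. Counts of members called, without 1 library, were 5 to 6 higher and 4 to 7 lower, with 4 lower without Ezh2-deficient replicate 1 or without WT replicate 3; the count of all genes was 1972 to 3168, with 1972 without Ezh2-deficient replicate 3. Without the library with the highest CD8 markers in each group, 2 members were lower. Over all genes 2006 passed in either direction, against 3001. The cause of these differences was not tested.

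The 24 sign changes were in 7 members that were not called, at adjusted p of 0.119 or more. Zbtb11 gave -0.0034 with RLE and with upper-quartile scaling, -0.019 with total counts, -0.0086 without a filter, -0.0050 in DESeq2, -0.031 in limma-voom with quality weights, -0.057 to 0.041 over left-out libraries, -0.047 without the highest CD8 libraries, -0.083 with the GC offset and -0.11 with GC and length. Zbtb2 gave -0.0054 in limma-voom with quality weights, -0.029 (without WT replicate 4) to 0.068 over left-out libraries, -0.021 without the highest CD8 libraries and -0.049 with GC and length. Zbtb22 gave 0.0063 and Zbtb34 -0.034 with GC and length. Zbtb38 gave -0.0073 and Zbtb44 -0.040 with the GC offset, and -0.094 and -0.14 with GC and length. Zbtb43 gave -0.054 (without Ezh2-deficient replicate 1) to 0.16 over left-out libraries.

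Deviations of libraries with the same number were weakly correlated (-0.14 to 0.21), and 0 of 4 matched best with their own number. Hypoxia scores of Ezh2-deficient and WT libraries were close in replicates 1 (7.55 and 7.52), 3 (6.26 and 6.34) and 4 (7.74 and 7.75). They were apart in replicate 2 (6.28 and 7.48). Whether the numbers pair the libraries cannot be told from these values. With the replicate block, 5 members were higher and 6 lower; Zbtb26 (0.47, adjusted p = 0.0558) and Zbtb7b (-0.40, adjusted p = 0.0629) missed the threshold. Depth limits Zbtb16, at 47 counts in all.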
